A study of Mus musculus with 21 samples.

Results

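Among the transcripts assembled from long reads of mouse sperm, oocytes and preimplantation embryos, 618 had 2 or more exons and lay between annotated genes. Their span overlapped no GENCODE vM21 gene on either strand of the mm10 genome. No base of the span lay within 2000 bases past the end of a gene, whatever the strand of the transcript. On the strand of the gene, a transcript there could be its readthrough. These members were 618 of the 22612 transcripts in the merged assembly and came from 519 loci, and another 1471 intergenic transcripts had a single exon. Samples were sperm of DBA/2J males (the protocol names DBA/2N), oocytes of C57/BL6J females, and embryos of ♂DBA/2J × ♀C57/BL6J crosses at the 1-cell, 2-cell, 4-cell, 8-cell and blastocyst stages. Females aged 3–5 weeks were superovulated with 7.5 IU of PMSG and 7.5 IU of hCG, and oocytes were taken 20 h after hCG, 1-cell embryos at 24–26 h, 2-cell at 46–48 h, 4-cell at 54–58 h, 8-cell at 68–70 h and blastocysts at 94–96 h. Embryos were cultured in KSOM medium. Each stage had 2 short-read libraries, whose transcript abundances (TPM, a level corrected for length and scaled to the same total in every library) are used here, and 1 long-read pool. By the study's methods, each stage was collected in 2 batches of pooled cells or embryos, each batch gave a short-read library, and the long-read pool mixed the cDNA of both. P-values therefore measure the spread between 2 pools a stage, not between animals.

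An intergenic transcript with introns is a candidate gene that an annotation can lack. Many such transcripts in the germ line and early embryo are long noncoding RNAs, and many begin in retrotransposon-derived promoters that are open for a short window. The mouse oocyte stores RNA that is degraded after fertilization, and the embryonic genome is switched on mainly at the 2-cell stage, so a transcript of this kind can be a maternal store, a product of the activated genome, or, in sperm, a leftover of spermatogenesis.

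Part of these loci overlapped genes of RefSeq, a second annotation. The overlap was counted with whole gene spans, introns included, on either strand, so it does not show that the transcript is that gene. Members spanned a median of 5990.5 bases and single-exon transcripts 746, and a longer span can meet more genes. RefSeq gene spans were overlapped by 180 members (29.1%, 25.7 to 32.8%), of which 131 met only long noncoding RNA genes, against 182 of the 1471 single-exon transcripts (12.4%, 10.8 to 14.2%). A RefSeq start on the same strand lay within 300 bases of 39 member starts (6.31%), against 11 single-exon ones (0.748%). Where the RefSeq promoter table has a window around such a start, the sequence under the member's start can be shown. Below is the member of highest TPM for each stage whose start fell in a same-strand window, as RefSeq GRCm38.p6 sequence from 100 bases before to 50 bases after the RefSeq start, with the bases from the member's own long-read start onward in capitals. They are printed to show where the long-read starts fall beside the RefSeq models.
Gm42287 and TCONS_00013785, sperm, chr4:50789524-50789673, plus strand: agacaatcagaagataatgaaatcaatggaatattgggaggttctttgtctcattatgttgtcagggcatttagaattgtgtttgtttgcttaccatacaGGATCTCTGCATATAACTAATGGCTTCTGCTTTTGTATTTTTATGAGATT
Gm36619 and TCONS_00015483, oocyte, chr5:100726999-100727148, plus strand: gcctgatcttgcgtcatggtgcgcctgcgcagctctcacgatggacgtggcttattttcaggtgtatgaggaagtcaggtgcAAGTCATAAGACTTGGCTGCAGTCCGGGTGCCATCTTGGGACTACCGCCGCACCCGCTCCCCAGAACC
Gm41644 and TCONS_00008908, 1-cell, chr17:85756029-85756178, plus strand: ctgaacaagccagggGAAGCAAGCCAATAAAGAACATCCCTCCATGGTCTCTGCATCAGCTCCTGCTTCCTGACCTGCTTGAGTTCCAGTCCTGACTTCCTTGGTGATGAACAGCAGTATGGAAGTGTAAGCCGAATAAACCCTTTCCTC
Gm2560 and TCONS_00014422, 2-cell, chr4:14291260-14291409, minus strand: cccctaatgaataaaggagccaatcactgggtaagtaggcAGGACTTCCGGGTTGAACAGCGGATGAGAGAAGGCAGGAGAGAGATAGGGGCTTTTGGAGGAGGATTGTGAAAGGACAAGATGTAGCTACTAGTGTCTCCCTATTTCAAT
Gm35588 and TCONS_00018040, 4-cell, chr7:43253654-43253803, plus strand: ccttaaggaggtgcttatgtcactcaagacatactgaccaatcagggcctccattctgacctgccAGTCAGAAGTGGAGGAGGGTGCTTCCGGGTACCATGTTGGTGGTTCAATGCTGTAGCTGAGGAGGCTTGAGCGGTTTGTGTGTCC
Gm32587 and TCONS_00006056, 8-cell, chr14:18463510-18463659, plus strand: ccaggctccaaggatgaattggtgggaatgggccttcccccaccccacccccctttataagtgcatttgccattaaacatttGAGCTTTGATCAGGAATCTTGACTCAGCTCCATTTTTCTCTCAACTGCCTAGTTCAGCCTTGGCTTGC
Gm32960 and TCONS_00010303, blastocyst, chr19:38348600-38348749, plus strand: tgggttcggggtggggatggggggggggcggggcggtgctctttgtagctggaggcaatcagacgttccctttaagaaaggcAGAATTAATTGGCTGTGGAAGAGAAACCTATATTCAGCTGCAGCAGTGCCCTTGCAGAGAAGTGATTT
TCONS_00013785 began at the RefSeq base itself, TCONS_00015483, TCONS_00006056 and TCONS_00010303 each 18 bases before it, and TCONS_00018040, TCONS_00014422 and TCONS_00008908 began 35, 60 and 85 bases before it. The windows were chosen because a member started in them, so the choice itself limits these distances. Over the 26 same-strand windows that held a member's start, the median GC content was 49.0% with 3 CpG, against 52.7% and 7 CpG over all 32817 windows. CCAAT was in 18 of the 26 (69.2%) and in 37.4% of all windows, TATAAA in 3 (11.5%) and in 13.6%, and GGGCGG in 5 (19.2%) and in 35.6%, each searched on both strands over 300 bases. These are descriptions of letters in the windows, and no test was run on them.

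The libraries of some stages stood apart from each other, and this touches every count below. Where 2 values are given for a stage, the first is replicate 1 and the second is replicate 2. In the 2-cell stage, 301 members reached 1 TPM in replicate 1 and 521 in replicate 2, while the 4-cell libraries had 323 and 321. Oocyte replicate 1 had 376 such members and replicate 2 had 213. Blastocyst replicate 2 had 99, the fewest of the 14 libraries, against 203 in replicate 1. In the read totals that the study lists, 2-cell replicate 2 had the most reads of the 14 libraries and 2-cell replicate 1 had fewer than any other but 1, whereas blastocyst replicate 2 had more reads than replicate 1. The summed TPM of 8 oocyte marker genes (Zp1, Zp2, Zp3, Gdf9, Bmp15, Nlrp5, Oosp1 and Ooep) was 5318 in oocyte replicate 1 and 16252 in replicate 2. Of these 8 genes, 2 were highest in the oocyte. Their sum was 144 in 2-cell replicate 1 and 1347 in replicate 2, and the 10 measured genes of a 2-cell list that includes Zscan4c and Zfp352 summed to 63.9 and 894 there. Of all 618 members, 532 were higher in 2-cell replicate 2 than in replicate 1, and so were 211 of the 236 that were highest in the oocyte or the 1-cell embryo. The 6 sperm markers summed to 14026 and 20770 TPM in sperm and to at most 16.98 elsewhere, but the sperm libraries also held 79246 and 20532 TPM of 5 blood genes and 2142 and 542 of 4 epididymal and somatic ones, and the 7 cumulus and granulosa markers had no transcript in the assembly. The part of these differences in the results was not tested, and values are given with and without the libraries where they change a call.

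Most members were short and simply built. Of the 618, 326 had 2 exons, 195 had 3, 74 had 4, 17 had 5, 5 had 6 and 1 had 8. The median spliced length was 713 bases, against 1510 bases and 6 exons for the 7958 merged transcripts whose introns matched an annotated transcript. Introns ranged from 22 to 128905 bases, and 13 members had an intron under 70 bases, near the lower limit for splicing in mammals. The 519 loci mostly held 1 member each (442 loci), and 42 loci also held a transcript that was no member, such as a single-exon form. Exonic bases were shared with another merged transcript by 214 members, and for 163 at least 50% of the bases were shared, so the abundance of these forms depends on how salmon divided reads among them. Members lay on all chromosomes (37 on X), and 13 were on unplaced scaffolds.

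Member starts were usually far from annotated ones. The median distance to the nearest annotated start on either strand was 22386 bases (quartiles 9296 and 48749), while the single-exon intergenic transcripts had a median of 15694 bases. In 216 members (35.0%, 95% Wilson interval 31.3 to 38.8%) the nearest start was on the opposite strand and pointed away, head to head. In 180 it lay downstream on the same strand, in 137 upstream on the same strand, and in 85 the pair faced tail to tail. The head-to-head share of single-exon transcripts was 34.1% (31.7 to 36.5%), and the intervals overlapped. Within 1000 bases of an annotated start lay 26 members, and 25 of them were head to head, as the plot of distances shows. The membership rule fixes this in part. At this distance it allows no other arrangement on the opposite strand, and on the same strand only a member upstream of the gene.

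**Figure D1:**
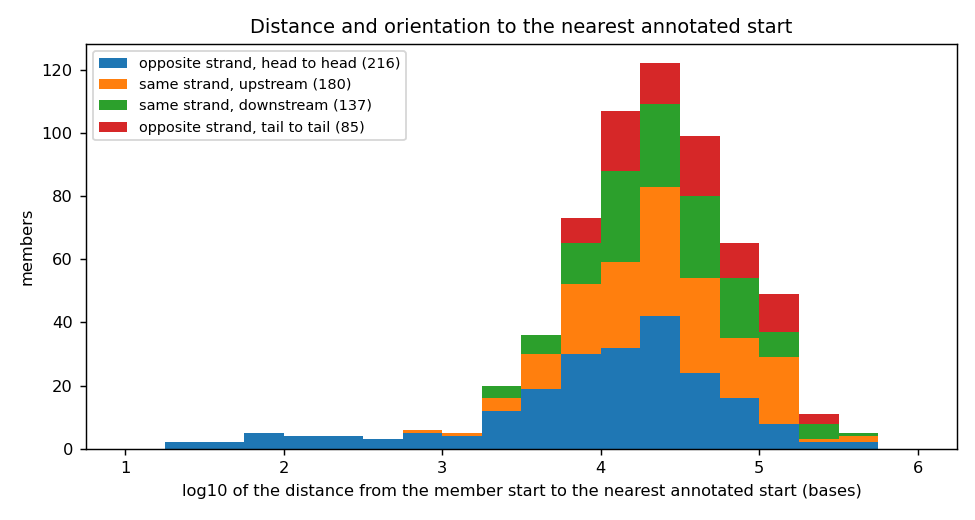
Distance from each member's start to the nearest GENCODE start, as log10 bases on the horizontal axis, with the number of members on the vertical axis and colours for the orientation. Most of the 618 members lie between 4 and 5 on this scale, and 25 of the 26 members under 3 (within 1000 bases) are head to head. The membership rule allows no other opposite-strand arrangement at that distance.

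The downstream limit decided few cases. Just inside it, TCONS_00009306 lay 2027 bases past Plcl2, TCONS_00003168 lay 2263 bases past 1700052K11Rik and TCONS_00013986 lay 2381 bases past Gm23143. Just outside, TCONS_00005364 and TCONS_00005363 lay 1995 and 1991 bases past Vmn2r-ps100. In all, 37 multi-exon intergenic transcripts were set aside by this limit. With the limit applied only on the strand of the gene, there would be 641 members in place of 618, so part of the 37 could not be readthrough.

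The start range over pools could be read for 93 members found in 2 or more pools. Their starts differed by a median of 4 bases between pools (upper quartile 25, highest 188), and these pools were sequenced separately.

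Of the 618 members, 25 (4.05%, 2.75 to 5.90%) started within 1000 bases of an annotated start on the opposite strand. All 25 were head to head, an arrangement known from divergent promoters and the only one the membership rule allows at this distance. The share that started so close was 4.21% (62 of 1471) for single-exon transcripts. The highest TPM fell in sperm for 16 of the 25 and in the 2-cell stage for 6, against 100 in sperm of the other 593 members. For 2 of them whose starts fall in the promoter window of the neighbouring gene, the whole window is shown in the direction of that gene, with the bases from the member's start to the gene's RefSeq start in capitals.
Utp20 and TCONS_00001814, chr10:88826765-88827064, minus strand: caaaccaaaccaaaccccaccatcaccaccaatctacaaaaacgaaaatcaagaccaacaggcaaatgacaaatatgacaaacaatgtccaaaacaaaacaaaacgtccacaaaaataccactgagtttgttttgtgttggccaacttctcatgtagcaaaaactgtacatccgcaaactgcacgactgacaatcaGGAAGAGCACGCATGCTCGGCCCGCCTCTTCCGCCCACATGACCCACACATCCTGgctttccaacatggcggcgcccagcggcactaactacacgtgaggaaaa
Selenoi and TCONS_00015978, chr5:30232331-30232630, plus strand: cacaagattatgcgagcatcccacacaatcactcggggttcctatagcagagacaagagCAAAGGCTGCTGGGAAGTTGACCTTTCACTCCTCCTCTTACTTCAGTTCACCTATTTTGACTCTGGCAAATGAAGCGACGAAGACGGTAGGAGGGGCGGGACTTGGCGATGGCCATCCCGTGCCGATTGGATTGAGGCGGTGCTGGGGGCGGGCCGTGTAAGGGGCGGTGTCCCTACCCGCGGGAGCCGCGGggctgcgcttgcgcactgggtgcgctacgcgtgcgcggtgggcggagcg
TCONS_00001814 (chr10:88826868-88830916, plus strand, 2 exons) started 64 bases from the GENCODE start of Utp20, a factor of small ribosomal subunit processing. Its TPM was 5.01 and 22.5 in sperm, 0.865 and 6.62 in oocytes and 2.41 to 15.6 in the embryo libraries, while Utp20 had 13.5 and 8.53 in oocytes and 66.0 and 43.9 in 4-cell embryos. The other start belongs to Selenoi, an ethanolamine phosphotransferase, at 191 bases: TCONS_00015978 had 4.62 and 5.52 TPM in sperm and 0.147 and 0 in oocytes, and Selenoi had its highest mean in 4-cell embryos (61.8 and 63.0).

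By the mean over the 14 libraries, the 5 highest of these head-to-head members were TCONS_00001814 and 4 others, and they differed in stage. TCONS_00005529 (chr13:120216696-120220679, plus strand, 4 exons) started 749 bases from Gm21762, a protein-coding gene model. Its TPM was 0.404 and 0 in 1-cell embryos, 16.5 and 131 in 2-cell, 36.5 and 32.2 in 4-cell and 7.01 and 7.95 in 8-cell embryos, and Gm21762 had 0.405 and 0, 13.3 and 92.3, 10.1 and 18.2 and 12.3 and 7.63. In both, every library of the 3 cleavage stages from 2-cell on lay above the 1-cell ones, and replicate 2 of the 2-cell stage was the highest. TCONS_00005529 rose from 1-cell to 2-cell in the limma fit described below (5.34 ± 0.90 (SE), adjusted p = 0.00151). TCONS_00005368, 76 bases from the noncoding Gm17514, had 63.8 and 66.9 TPM in sperm and 1.55 to 18.8 elsewhere, with no overlap, and was lower in the oocyte than in sperm (-4.51 ± 0.66 (SE), adjusted p = 0.000109, oocyte minus sperm). TCONS_00015513, 552 bases from Barhl2, a homeobox gene of the nervous system, had 10.4 and 102 TPM in sperm and was listed at 0 in every other library but 1, where it had 0.887. TCONS_00011119, near the pseudogene Gm13655, was highest in the blastocyst at 28.3 and 10.96. Of the 25, 10 had a neighbour with a transcript in the assembly. Of these 10, 4 shared the stage of highest TPM with it, and in 9 of 10 the neighbour reached the higher TPM.

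Across all libraries the members made up 0.099% (blastocyst replicate 2) to 1.97% (2-cell replicate 2) of the TPM. The mean TPM in the best stage had a median of 8.55 (quartiles 3.53 and 23.8), against 52.4 for transcripts with annotated introns and 25.2 for single-exon intergenic ones. It was at least 1 in 587 members, at least 10 in 284 and at least 100 in 39, and no member was listed at 0 in all 14 libraries. Levels were uneven among stages. The index tau, which is 0 for equal levels and 1 for a single stage, had a median of 0.683 in members, 0.649 in single-exon intergenic transcripts and 0.452 in those with annotated introns, and low levels raise it. Only 21 members (3.40%) reached 1 TPM in all 14 libraries, compared with 23.9% of all merged transcripts.

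**Figure D2:**
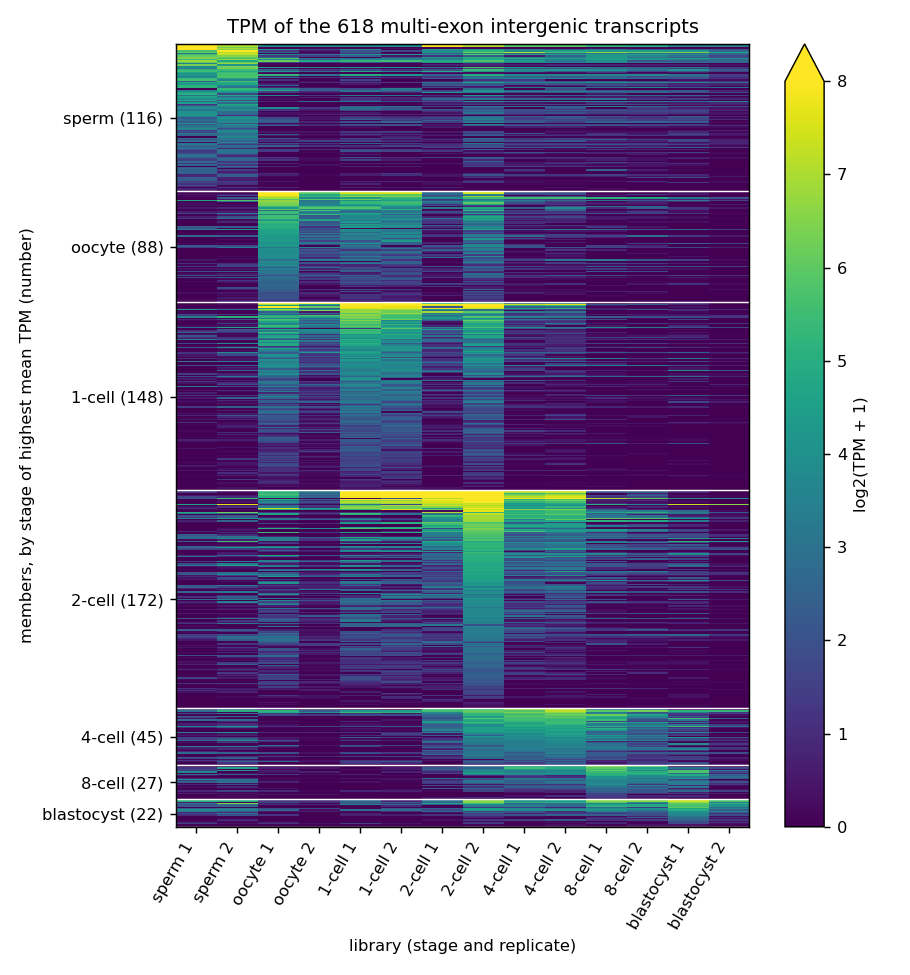
log2(TPM + 1) of the 618 members (rows) in the 14 libraries (columns), with rows ordered by the stage of highest mean TPM and colour from 0 to 8 or above. Members highest in oocyte and 1-cell form a block that is bright in 1 of the 2 oocyte libraries and in 2-cell replicate 2, and dark in 2-cell replicate 1.

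By the mean of both libraries, 172 members (27.8%, 24.4 to 31.5%) were highest in the 2-cell stage, 148 (23.9%, 20.8 to 27.5%) in the 1-cell, 116 in sperm (18.8%), 88 in the oocyte (14.2%), 45 in the 4-cell (7.28%), 27 in the 8-cell (4.37%) and 22 in the blastocyst (3.56%). Transcripts with annotated introns had 11.5% in the 2-cell, 9.93% in the 1-cell and 15.8% in the blastocyst. Single-exon intergenic transcripts had 25.6% (23.4 to 27.9%) in the 2-cell, and this interval overlapped that of the members. They had 9.18% in the 1-cell and 4.93% in the blastocyst. Of all merged transcripts, 17.6% were highest in the 2-cell. A high 2-cell share was therefore not particular to members among intergenic transcripts. The 2-cell share of members depended on the library. With replicate 1 of every stage alone it was 7.49%, and with replicate 2 alone it was 45.5%. The oocyte share was 24.9% and 2.93% in the same order, and the 1-cell share moved least of the 3, from 26.2% to 19.7%. Sperm held 16.3% and 19.5%.

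**Figure D3:**
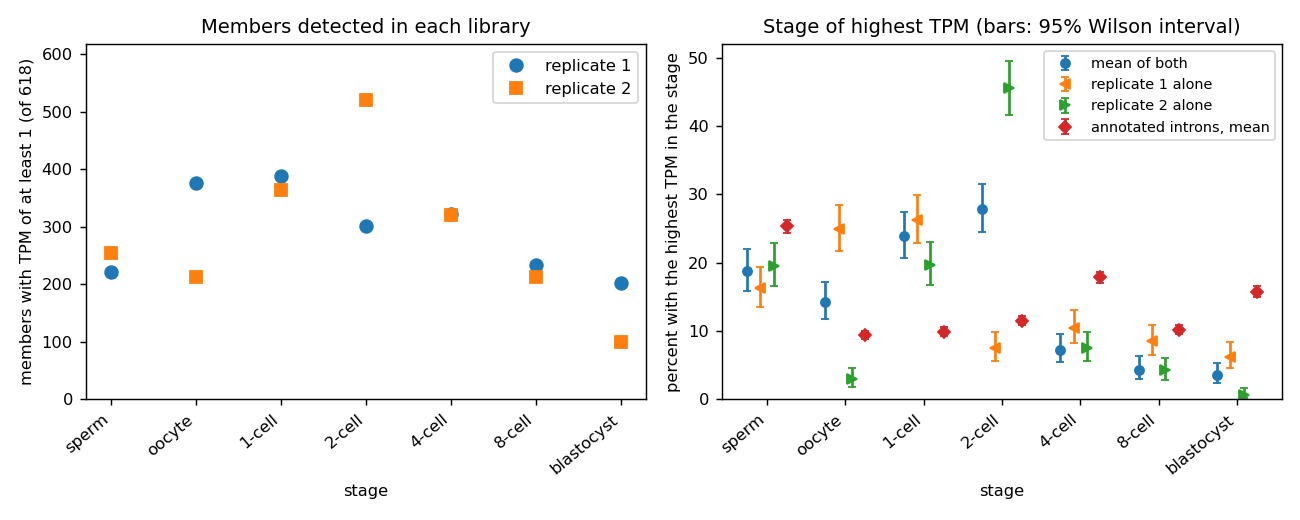
Left, number of the 618 members with TPM of at least 1 in each library (circles replicate 1, squares replicate 2). Right, percent of members highest in each stage by the mean of both libraries and by each replicate alone, with transcripts of annotated introns for comparison and bars for 95% Wilson intervals, showing 7.49% and 45.5% for the 2-cell stage in the single replicates.

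The long-read pools gave the exon structures, and they can be set beside the short-read levels. The introns of 523 members were found in 1 pool, of 76 in 2, of 14 in 3 and of 3 in 4, and 2 members matched no pool exactly. The 1-cell pool held 298 members (48.2%), the oocyte pool 153, the 2-cell pool 85, sperm 72, the 4-cell pool 44, the 8-cell pool 43 and the blastocyst pool 34, while the pools had similar numbers of isoforms, from 7034 in the oocyte to 8831 in the 8-cell. Of the 72 in the sperm pool, 64 (88.9%) also had their highest TPM in sperm, and of the 298 in the 1-cell pool, 116 (38.9%) had it in the 1-cell stage. In all, 338 of 618 (54.7%, 50.8 to 58.6%) were found in the pool of their best stage. Members seen only in the 1-cell pool had their highest TPM in the 1-cell stage in 95 cases, in the 2-cell stage in 67 and in the oocyte in 31.

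Sperm and oocyte were compared first, because their members would be the paternal and maternal stock at fertilization. The sperm libraries also held blood and epididymal RNA, as given above. Whether a member high in them came from sperm or from these other cells was not tested. All 12 oocyte and embryo libraries and both sperm libraries entered 1 limma fit on log2(TPM + 1) over 21568 transcripts, of which 572 were members, and 46 members stayed under the filter of 1 TPM in 2 libraries. Changes are log2 differences of log2(TPM + 1), which understate those of low levels, with p-values adjusted by Benjamini-Hochberg over all transcripts tested. With an adjusted p under 0.05, 114 members were higher in the oocyte and 99 in sperm, which is 19.9% and 17.3% of those tested, against 16.5% and 29.3% of all transcripts. The median difference (oocyte minus sperm) was 0.31 for members and -0.56 for all transcripts. After quantile normalization 245 members were higher and 83 lower, and all transcripts moved the same way, to 5211 higher and 5289 lower from 3555 and 6326. The split of members also turned with the oocyte library, which it did not for all transcripts. Without oocyte replicate 1, 47 members were higher and 88 lower (median -0.02), against 2751 and 5006 of all transcripts, and without replicate 2, 161 were higher and 63 lower (median 0.80), against 3001 and 4911. With the spread weighted by stage, 83 members were higher and 74 lower, against 2599 and 5134 of all transcripts. Called higher whichever of the 4 libraries was left out were 44, and called lower were 39. In bulk libraries, fewer cells of a type and less RNA per cell cannot be told apart.

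TCONS_00015420 (chr5:89616438-89622467, plus strand, 2 exons, 2950 bases) was the most abundant oocyte member. Its TPM was 0.126 and 0.182 in sperm, 922 and 903 in oocytes, 1050.1 and 1471 in 1-cell, 36.3 and 78.7 in 2-cell, 4.90 and 7.66 in 4-cell and at most 0.739 in 8-cell embryos and blastocysts. It was high in both oocyte libraries alike, with a difference from sperm of 9.63 ± 0.70 (SE), adjusted p = 9.29e-07. Its span meets the RefSeq pseudogene Gm7056. TCONS_00000854 (chr1:42545899-42549572, minus strand, 2 exons) had 1.32 and 1.79 in sperm and 267 and 567 in oocytes (7.26 ± 0.94 (SE), adjusted p = 4.43e-05). TCONS_00022241 on X had 0.0297 and 0 in sperm and 356 and 63.1 in oocytes (7.22 ± 1.19 (SE), adjusted p = 0.00028), and its 2 oocyte values differ more from each other than those of the other 2.

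A second X-linked member had almost the structure of TCONS_00022241. TCONS_00022231 (chrX:27383472-27433587, minus strand) and TCONS_00022241 (chrX:30737140-30787287, minus strand) each have 4 exons, with exon lengths that differ by at most 3 bases, and spliced lengths of 2010 and 2006. Their TPM ran alike, with 343 and 67.7 in oocytes, 239 and 201 in 1-cell and 3.29 and 242 in 2-cell embryos for TCONS_00022231 beside 356 and 63.1, 179 and 186 and 5.41 and 184 for TCONS_00022241. Near-identical copies can share reads, so the division between these 2 is uncertain. Among the 292 members of 3 or more exons, 1 other pair at different loci had exon lengths within 5 bases.

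On the sperm side, TCONS_00021302 (chr9:41905555-41911837, minus strand, 3 exons) had 408 and 123 TPM in sperm and at most 0.246 in every other library (-7.76 ± 0.58 (SE), adjusted p = 9.52e-07). Its exons are listed as 151, 1 and 2752 bases long, so its middle exon is a single base. TCONS_00011828 (chr2:25475302-25478116, minus strand, 3 exons) had 479 and 74.6 in sperm, was listed at 0 in 11 of the other 12 libraries and had 0.145 in the remaining 8-cell one (adjusted p = 2.87e-06). For both members the sperm libraries lay above all others, with replicate 1 the higher, as for the blood genes. TCONS_00009639, given next, and the sperm markers had replicate 2 higher, and the cell of origin was not tested. TCONS_00009639 had 49.8 and 308 in sperm and 1.57 and 0.370 in oocytes (-6.06 ± 0.92 (SE), adjusted p = 0.000148), and had 13.6 and 37.0 in 2-cell embryos. TCONS_00005415 (chr13:78472243-78472536, plus strand, 2 exons, 227 bases, with an intron of 67) was the most abundant member in sperm, 8-cell and blastocyst libraries. It had 2057 and 1533 TPM in sperm, 664 and 59.4 in oocytes, 156 and 229 in 1-cell, 456 and 580.3 in 2-cell, 484 and 363 in 4-cell, 391 and 265 in 8-cell embryos and 296 and 226 in blastocysts. It was present throughout, and its difference between oocyte and sperm (-3.15 ± 1.04 (SE), adjusted p = 0.0223) was lost without either sperm library or without oocyte replicate 2, with adjusted p of 0.00233 to 0.274 over the alternatives.

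Members present in sperm and not in the oocyte were then followed into the 1-cell embryo. With at least 10 TPM in both sperm libraries and under 1 in both oocyte libraries there were 14 members (2.27%, against 6.10% of all transcripts). Of these, 3 had at least 1 TPM in both 1-cell libraries: TCONS_00015133 (4.75 and 6.008), TCONS_00017065 (1.26 and 1.62) and TCONS_00021803 (7.42 and 2.07). That is 0.485% of the members, against 0.694% of all transcripts. Another 6 of the 14 stayed under 1 TPM at all later stages, 0.971% of the members against 1.01% of all transcripts.

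From the oocyte to the 1-cell embryo, 27 of 541 tested members rose and 0 fell at an adjusted p under 0.05 (4.99% and 0.0%), against 1.92% and 0.0840% of all 20250 transcripts. At an unadjusted p under 0.05 there were 64. Neighbouring steps share a stage, and its libraries enter both. All 27 calls were lost when oocyte replicate 2 or either 1-cell library was left out, and the calls over all transcripts then went from 406 to 3, 2 and 1, so the loss was general. Without oocyte replicate 1, 23 were kept. The largest rise was in TCONS_00000131 (chr1:37604156-37605795, plus strand, 2 exons, with an intron of 52). Its TPM was 0.467 and 1.14 in sperm, 79.6 and 13.1 in oocytes, 1189 and 1364 in 1-cell, 1575 and 3089 in 2-cell, 507 and 613 in 4-cell, 10.4 and 10.5 in 8-cell embryos and 1.02 and 0.0775 in blastocysts. The stages did not overlap at this step (5.24 ± 0.87 (SE), adjusted p = 0.0103), which was a condition for naming the largest rises. The 1-cell libraries lay above the oocyte ones in 143 of 541 tested members (26.4%). At 2-cell TCONS_00000131 was the most abundant member of both libraries. TCONS_00001805 (chr10:88049993-88051084, plus strand, 2 exons) went from 20.9 and 4.69 to 437 and 337 (5.11 ± 0.75 (SE), adjusted p = 0.00875), and TCONS_00012822 (chr3:92914172-92915811, plus strand, 2 exons) from 4.26 and 0.451 to 107 and 71.7 (5.01 ± 0.73 (SE), adjusted p = 0.00875).

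Of the 27 that rose, 17 belonged to a group that stood out by structure, chosen after its values were seen. Among 2-exon members, 29 from 23 loci on 12 chromosomes spanned 1624 to 1646 bases from first to last base, all in the bin from 1620 to 1649, while the bins of 30 bases on either side held 2 and 0. Among the bins from 1440 to 1829 bases, single-exon intergenic transcripts were also most frequent in this bin, with 40, 22 of them highest at 2-cell. The intron was at different places and of 25 different lengths, from 32 to 1064 bases, and at 4 loci (TCONS_00012822, TCONS_00013447, TCONS_00016644 and TCONS_00005655) it was 417 bases after a first exon of 385 to 393. At the locus of TCONS_00020346, 4 members shared both ends and differed only in the intron. Whether these loci carry copies of 1 repeated sequence was not analysed here, and if they do, reads that match several copies make each single value uncertain.

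**Figure D4:**
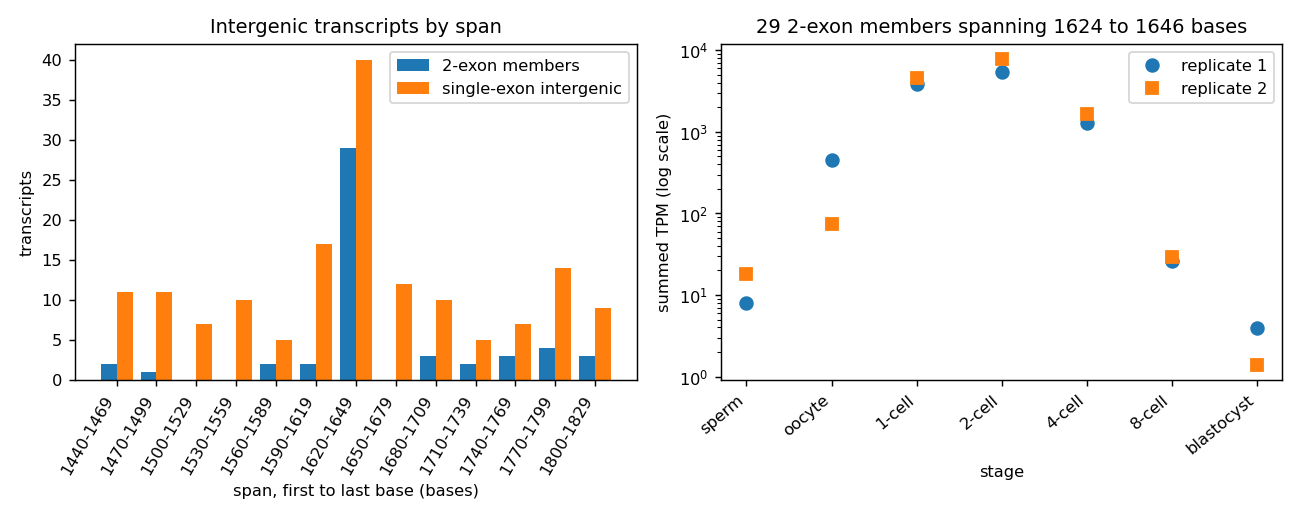
Left, number of 2-exon members and of single-exon intergenic transcripts by span in bins of 30 bases, with 29 and 40 in the bin from 1620 to 1649. Right, summed TPM of the 29 members in each library on a log scale (circles replicate 1, squares replicate 2), highest in 1-cell and 2-cell embryos.

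The 29 together had 8.05 and 18.2 TPM in sperm, 449 and 73.9 in oocytes, 3826 and 4549 in 1-cell, 5485 and 7788 in 2-cell, 1271 and 1660 in 4-cell, 26.5 and 29.2 in 8-cell embryos and 3.90 and 1.39 in blastocysts. The sum was highest in the 1-cell and 2-cell libraries, and those of the 2-cell stage differed less here than for the members as a whole. TCONS_00021394, the second of the members highest at 2-cell, belonged to them and had 35.5 and 7.26 TPM in oocytes, 506 and 545 in 1-cell, 645 and 714 in 2-cell, 147 and 161 in 4-cell and 3.34 and 4.30 in 8-cell embryos. In 2-cell replicate 1 the 29 made up 53.8% of all TPM in members. Highest at 2-cell were 23 of the 29 and at 1-cell 5. Of 28 tested, 17 rose from oocyte to 1-cell, 5 fell from 2-cell to 4-cell, and 16 fell from 4-cell to 8-cell, where 1.92%, 1.17% and 2.44% of all transcripts did, and since the 29 were chosen with their values seen, nothing is read from the difference. As for all members, no call at the 1-cell step remained without oocyte replicate 2 or either 1-cell library, none at the 4-cell step without either 4-cell library, and none at the 8-cell step without any of its 4 libraries. Leaving the 29 out, 10 members rose at the 1-cell step, 5 fell at the 4-cell step and 13 were called at the 8-cell step, while the count from 1-cell to 2-cell stayed at 112.

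The 1-cell to 2-cell step, when the embryonic genome is activated, had the most calls between consecutive stages. In members, 84 of 541 rose (15.5%) and 28 fell (5.18%), against 22.9% and 5.11% of all transcripts. The median change was 0.05 in members and 0.75 over all transcripts. After quantile normalization 55 members rose and 163 fell, and all transcripts turned as well, from 4630 rising and 1034 falling to 2620 and 3041, so this turn is not particular to members. Leaving out 2-cell replicate 1 gave 134 rising and 13 falling members (median 0.96), against 6225 and 677 of all transcripts (1.18). Leaving out replicate 2 gave 57 and 111 members (median -0.79), against 4016 and 2213 of all transcripts (0.28). The balance thus turned with 1 library in members and not over all transcripts, and the difference was not tested. With the spread weighted by stage, 35 members rose and 6 fell, against 2040 and 230 of all transcripts. Called in all 4 fits that leave out 1 library of the 2 stages were 35 that rose and 5 that fell.

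Among the risers, TCONS_00003587 (chr11:60684845-60687620, minus strand, 2 exons, 238 bases) had 0 and 0 TPM in oocytes, 0 and 2.97 in 1-cell, 143 and 605 in 2-cell and 217 and 313 in 4-cell embryos (7.21 ± 0.87 (SE), adjusted p = 0.000491). TCONS_00006617 (chr14:57417270-57419482, minus strand, 2 exons) began 4580 bases head to head from Ift88, a gene of cilia assembly. It had 0.180 and 0.0773 in 1-cell, 53.5 and 105 in 2-cell, 139 and 159.9 in 4-cell, 32.4 and 17.6 in 8-cell embryos and 2.27 and 0.0416 in blastocysts (6.07 ± 0.73 (SE), adjusted p = 0.000491), and was the most abundant of the members highest in the 4-cell stage. TCONS_00012390, 4648 bases from the centrosome gene Cep250, was listed at 0 in all oocyte and 1-cell libraries and had 39.2 and 111 at 2-cell (adjusted p = 0.000487). For these 3, the call held in each of the 19 alternatives. Both 2-cell libraries lay above both 1-cell libraries, which was a condition for naming the largest rises. This order was seen in 154 of 541 tested members (28.5%). In all, 11 members were under 1 TPM in the 4 oocyte and 1-cell libraries and at least 10 in both 2-cell libraries (1.78%, against 3.15% of all transcripts). Of these 11, 9 were also under 1 in sperm (1.46% of the members, against 1.02% of all transcripts).

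XLOC_004958 on chromosome 15, which the study examined by knockout, has 2 members that share their first 2 exons (bases 59100339 to 59100453 and 59102057 to 59102240, plus strand, mm10) and differ in the start of the last, at 59103694 in TCONS_00006925 and at 59103358 in TCONS_00006924. The nearest annotated start is that of Mtss1, an actin-binding gene, 18334 bases away head to head. The shorter form TCONS_00006925 had 914 and 139 TPM in sperm, 11.2 and 11.04 in oocytes, 10.9 and 14.1 in 1-cell, 271 and 135 in 2-cell, 59.9 and 60.6 in 4-cell, 36.0 and 29.9 in 8-cell embryos and 9.84 and 10.1 in blastocysts. Its introns were read in the 2-cell and 4-cell pools. The longer form TCONS_00006924, read in the 8-cell pool, had 0 and 0.397 in sperm, 1.16 and 0 in oocytes, 0.490 and 0.278 in 1-cell, 19.9 and 31.9 in 2-cell, 14.03 and 13.1 in 4-cell, 13.9 and 8.65 in 8-cell embryos and 4.24 and 0.225 in blastocysts. The study picked this gene from transcripts upregulated from 1-cell to 2-cell in these same samples. Its rise at this step is therefore no independent evidence. Both forms rose from 1-cell to 2-cell without overlap (3.84 ± 0.66 (SE), adjusted p = 0.0016 for TCONS_00006925 and 4.25 ± 0.77 (SE), adjusted p = 0.00208 for TCONS_00006924), under each of the 19 alternatives. They differed in sperm, where TCONS_00006925 had its highest values, and TCONS_00006925 was higher in sperm than in oocytes (-4.89 ± 0.86 (SE), adjusted p = 0.000456, oocyte minus sperm) while the difference of TCONS_00006924 was 0.31 ± 0.76 (SE), adjusted p = 0.778. After the 2-cell stage neither form passed at any single step. All exonic bases of TCONS_00006925 are shared with another merged transcript, so its level rests on salmon's division of reads.

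**Figure D5:**
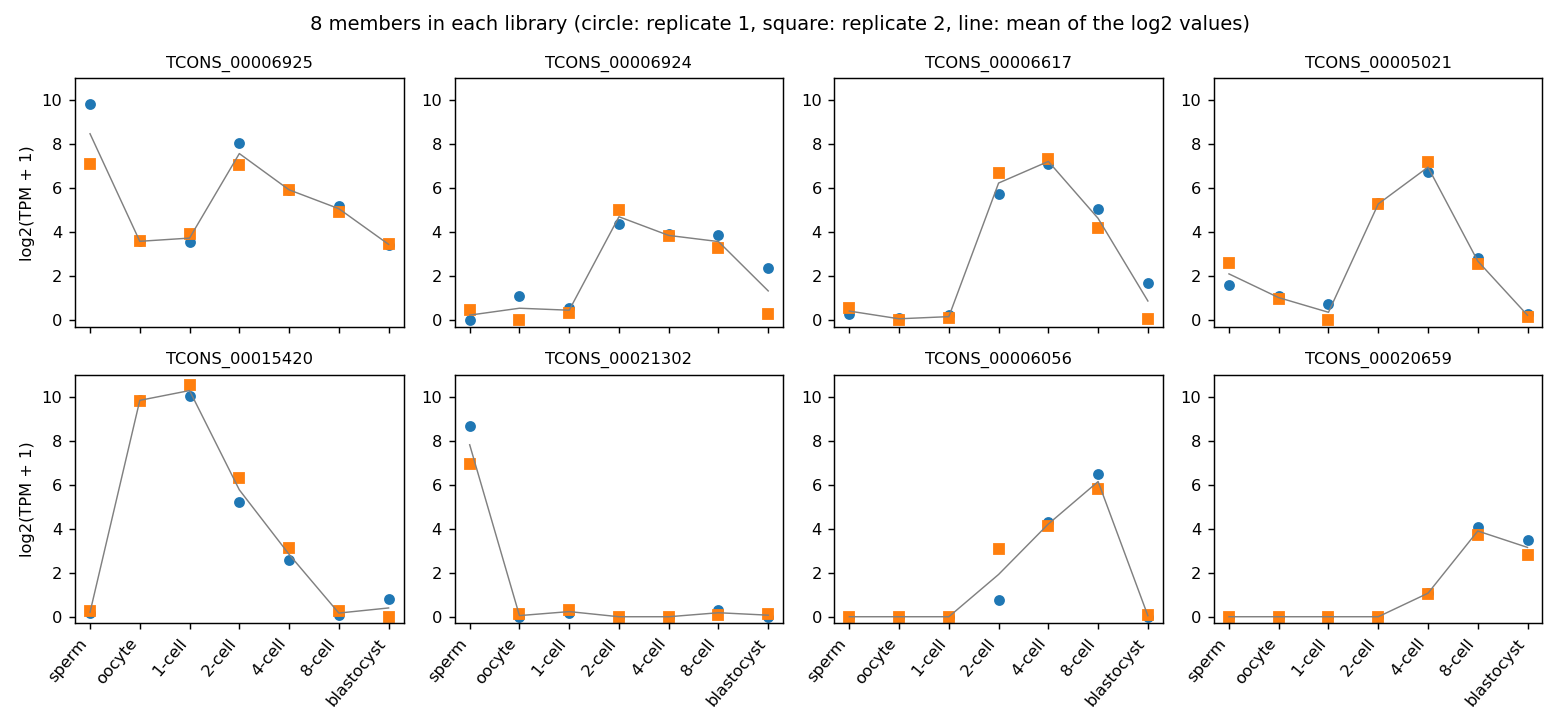
log2(TPM + 1) of 8 members by stage (circles replicate 1, squares replicate 2, line for the mean of the log2 values). Both forms of XLOC_004958 rise at the 2-cell stage, TCONS_00015420 is high in oocyte and 1-cell, TCONS_00021302 is high in sperm alone, and TCONS_00006056 and TCONS_00020659 peak in the 8-cell stage.

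TCONS_00003168 (chr11:105173336-105175463, plus strand, 2 exons) lies 5471 bases upstream of Tlk2, a kinase of chromatin assembly, on the same strand, and RefSeq counts the region to Tlk2. Its TPM was 1.78 and 0.257 in oocytes, 1.26 and 0.451 in 1-cell, 10.1 and 37.3 in 2-cell, 53.7 and 65.9 in 4-cell, 10.4 and 5.57 in 8-cell embryos and 1.93 and 1.962 in blastocysts. It rose at the 2-cell step (3.51 ± 0.75 (SE), adjusted p = 0.00537), a call lost without 1-cell replicate 2 (adjusted p of 0.00115 to 0.0582 over the alternatives), and the 4-cell libraries were its highest, but its change from 2-cell to 4-cell (1.55 ± 0.75 (SE), adjusted p = 0.24) and from 4-cell to 8-cell (-2.81 ± 0.75 (SE), adjusted p = 0.07) did not pass.

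The 3 members with the largest falls at the 2-cell step came from 2 loci. TCONS_00015420 went from 1050.1 and 1471 to 36.3 and 78.7 (-4.51 ± 0.69 (SE), adjusted p = 0.00108), and its neighbour at the same locus, TCONS_00015419 (2 exons, 262 bases), from 104 and 78.5 to 5.76 and 6.26 (-3.71 ± 0.64 (SE), adjusted p = 0.00167). In oocytes TCONS_00015419 had 55.9 and 83.7, so both forms had similar levels in oocytes and 1-cell embryos. TCONS_00001454 (chr1:191870221-191871941, minus strand, 2 exons), the second of the members highest at 1-cell, had 120.4 and 25.3 in oocytes, 1091 and 1048 in 1-cell and 1017 and 969 in 2-cell embryos and did not pass here (-0.11 ± 0.80 (SE), adjusted p = 0.94). TCONS_00018775 (chr7:30826812-30832883, minus strand, 3 exons of 100, 88 and 12 bases, 200 bases in all) went from 43.4 and 37.2 in oocytes and 34.7 and 15.3 in 1-cell to 0 and 0.721 in 2-cell embryos (-4.20 ± 0.75 (SE), adjusted p = 0.00203). In the 3 that fell, the 2-cell libraries lay below the 1-cell ones, which was a condition for naming the largest falls. This order was seen in 95 of 541 tested members (17.6%).

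From 2-cell to 4-cell 10 members fell and 0 rose (1.85% and 0.0%, against 1.17% and 1.46% of all transcripts, and 101 at an unadjusted p under 0.05). The median change was -0.75 in members and 0.01 over all transcripts, and the direction turned with 1 library. Without 2-cell replicate 1, 1 rose and 128 fell (median -1.53), against 515 and 1974 of all transcripts (-0.34), and without replicate 2, 22 rose and 15 fell (median 0.15), against 1662 and 896 (0.54). Without either 4-cell library no member and 2 transcripts in all were called. With only the 4 libraries of both stages or with the spread weighted by stage no member was called either, and 0 and 1 of all transcripts were. TCONS_00004793 (chr12:33764085-33780916, minus strand, 3 exons) went from 22.1 and 29.6 to 0 and 0.283 (-4.55 ± 0.67 (SE), adjusted p = 0.0166), TCONS_00020346 from 65.1 and 49.6 to 3.41 and 2.62 (-3.86 ± 0.60 (SE), adjusted p = 0.0171), and TCONS_00000420 from 6.10 and 17.5 to 0 in both 4-cell libraries (adjusted p = 0.0449). In oocytes TCONS_00004793 had 25.9 and 12.4 TPM and TCONS_00000420 had 12.3 and 0.870, and TCONS_00020346 was listed at 0. TCONS_00005021 (chr12:103377661-103382618, minus strand, 2 exons), 6064 bases head to head from Otub2, a deubiquitinase whose RefSeq span it overlaps, was among the most abundant at 4-cell: it had 0.671 and 0 in 1-cell, 38.9 and 37.7 in 2-cell, 106 and 146 in 4-cell and 6.21 and 4.84 in 8-cell embryos, with calls at the 2-cell (4.93 ± 0.61 (SE), adjusted p = 0.000529) and 8-cell steps (-4.27 ± 0.61 (SE), adjusted p = 0.00495).

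Between 4-cell and 8-cell, 26 members fell and 3 rose (4.81% and 0.555%, against 2.44% and 0.681% of all transcripts). No call remained when any of the 4 libraries was left out, in members or over all transcripts (50 to 60 members at an unadjusted p under 0.05). With only those 4 libraries in the fit, 113 of 307 members and 5198 of 17516 transcripts were called. TCONS_00004221 (chr12:8909499-8911130, plus strand, 2 exons) went from 139 and 196 to 1.40 and 1.87 (-5.99 ± 0.80 (SE), adjusted p = 0.00495), TCONS_00000131 from 507 and 613 to 10.4 and 10.5 (-5.60 ± 0.87 (SE), adjusted p = 0.00543) and TCONS_00017381 from 43.1 and 60.6 to 0 and 0.441 (-5.44 ± 0.86 (SE), adjusted p = 0.00577), all 3 from the group spanning 1624 to 1646 bases. Those that rose were lower in level. TCONS_00020659 (chr9:43863265-43863947, plus strand, 2 exons) was listed at 0 in all 8 libraries up to the 2-cell stage, had 1.14 and 1.06 TPM in 4-cell and 16.0 and 12.1 in 8-cell embryos (2.83 ± 0.50 (SE), adjusted p = 0.00855) and 10.3 and 5.96 in blastocysts. TCONS_00016220 went from 1.82 and 0.732 to 31.8 and 13.9 (3.32 ± 0.81 (SE), adjusted p = 0.0452), and TCONS_00006055 from 0.344 and 0.766 to 4.16 and 3.34 (1.62 ± 0.40 (SE), adjusted p = 0.0497).

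TCONS_00006055 has a partner form at its locus, TCONS_00006056 (chr14:18463592-18469950, plus strand, 3 exons), which starts at the same base, 18 bases before RefSeq Gm32587, in the window printed above. It was near 0 up to the 1-cell stage and had 0.710 and 7.41 TPM in 2-cell, 18.7 and 16.5 in 4-cell, 88.8 and 54.8 in 8-cell embryos and 1e-06 and 0.0676 in blastocysts, so its peak was at 8-cell. The 2 forms have the same exons 2 and 3, and exon 1 is 225 bases in TCONS_00006055 and 236 in TCONS_00006056. Their separate levels and calls therefore rest on salmon's division of reads. TCONS_00006056 showed the largest fall to the blastocyst (-6.10 ± 0.73 (SE), adjusted p = 0.00315). At this last step 10 members fell and 0 rose (1.85% and 0.0%, against 1.28% and 0.830% of all transcripts, and 58 at an unadjusted p under 0.05), with counts from 0 to 28 when libraries were left out, and from 8 to 1128 over all transcripts. For TCONS_00006056 the call was lost without 8-cell replicate 1, with adjusted p of 0.000548 to 0.0765 over the alternatives, and no call was kept in all 4 fits that leave out a library of either stage. TCONS_00010813 on an unplaced scaffold went from 72.5 and 23.2 to 1.25 and 0.307 (-4.62 ± 0.87 (SE), adjusted p = 0.02), and TCONS_00009513 from 45.3 and 31.5 to 2.75 and 0.279 (-4.15 ± 0.69 (SE), adjusted p = 0.0127).

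Few members were high in the blastocyst. At least 10 TPM in both libraries was reached by 15 (2.43%, against 23.9% of all transcripts). TCONS_00007207 (chr15:8821357-8822809, minus strand, 2 exons) had 159 and 53.3 TPM there and 94.2 and 93.4 in 8-cell embryos, with the 8-cell values between the 2 blastocyst ones. TCONS_00021806, on the unplaced scaffold JH584304.1, has 6 exons and had 154 and 95.6 in blastocysts, 22.6 and 11.4 in 8-cell, 89.7 and 132 in 2-cell, 5.67 and 2.11 in 1-cell embryos and 13.0 and 205 in sperm, and it rose at the 2-cell step (4.59 ± 0.75 (SE), adjusted p = 0.00131). TCONS_00021803 and TCONS_00021804 of the same scaffold followed it, with 124 and 179.6 and 26.4 and 44.2 at 2-cell and 154 and 94.3 and 63.2 and 36.6 in blastocysts. TCONS_00007373 was the most abundant member highest at 8-cell, at 216 and 95.6, but its 4-cell values (158 and 135) lay within that range.

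The 10 genes that the study had chosen for PCR were all members. The study states that it drew them at random among new genes above limits of TPM and exon number. Their levels in these samples are therefore no independent evidence. For their structure, the study reports that PCR and Sanger sequencing verified every exon junction. TCONS_00006055 and TCONS_00009513 are described above. TCONS_00005831 was listed at 0 in sperm, oocyte and 1-cell libraries and had 5.18 and 7.18 TPM in 2-cell and 7.49 and 5.39 in 4-cell embryos (adjusted p = 0.00402). TCONS_00022541 had 42.0 and 8.17 in oocytes against 0.258 and 0.320 in sperm (3.95 ± 1.13 (SE), adjusted p = 0.0109), a call lost without either sperm library or without oocyte replicate 1 (adjusted p of 0.00173 to 0.121 over the alternatives). The others passed at no step. TCONS_00017425 had 25.4 and 0.470 in oocytes, 29.6 and 7.72 in 1-cell, 8.46 and 152 in 2-cell and 47.1 and 64.0 in 4-cell embryos, and its 2-cell libraries differed widely. TCONS_00004813 had 24.3 and 54.9 in sperm and 103 and 7.49 in oocytes, TCONS_00000891 had 1.64 to 41.7 over all libraries, and TCONS_00004118 had 0 to 17.2. TCONS_00001315 had 28.3 and 3.28 in oocytes and was listed at 0 in both 1-cell libraries. TCONS_00022490 reached 2.83 and 0.439 in blastocysts and at most 0.227 elsewhere, and did not pass the filter. In the values used here it thus lies under the TPM limit that the study states for its choice.

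The locus with the most members was XLOC_010205 on chromosome 4, with 6 forms of 3 to 5 exons on the minus strand between 13361648 and 13414617. The most abundant form was TCONS_00014413 (4 exons), found in the oocyte, 1-cell and 2-cell pools, with 27.1 and 1.86 TPM in oocytes, 26.6 and 9.22 in 1-cell, 1.14 and 21.8 in 2-cell and 1.09 and 0.529 in 4-cell embryos. Its 2 libraries differed widely in the oocyte and at 2-cell, and no step from the oocyte on passed. It was higher in the oocyte than in sperm (3.16 ± 1.06 (SE), adjusted p = 0.0247), a call lost without either sperm library or without oocyte replicate 1 (adjusted p of 0.00217 to 0.311). TCONS_00014414 was next with 6.91 and 1.61 in 1-cell and 0.103 and 12.4 in 2-cell embryos. The most exons listed, 8, were in TCONS_00006339 (chr14:85905012-85959557, plus strand), but exons 2 to 7 are 7, 5, 9, 3, 2 and 2 bases long and the last holds 1388 of its 1438 bases. It had 10.3 and 54.7 TPM in sperm, 0.492 and 0.0511 in oocytes and 0.276 to 5.48 in embryos (-4.32 ± 0.79 (SE), adjusted p = 0.000578, oocyte minus sperm).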

How the data were processed

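The authors aligned long reads of 1 pool per stage to mm10, collapsed them into isoforms and merged the isoforms of the 7 stages into 1 set with Cuffmerge. The deposited exon positions are on mm10, counted from 1. To give the deposited TPM, the authors ran salmon on the short reads of each library against that merged set. The values are scaled to 1 total in every library and keep no read counts. The study lists read totals per library, which were not used in any fit here, and the number of reads behind a TPM was not estimated. TPM values on each stage's own isoforms were not used here.

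Members were found by the rule given at the start of the results, against GENCODE vM21. Members and lists were chosen with earlier results of these data known. TPM of at least 1 in 2 libraries was required, and log2(TPM + 1) was fitted in limma (version 3.58.1, R 4.3.3) with a term per stage and an empirical Bayes spread with trend, over the 12 oocyte and embryo libraries for the 5 steps and over 14 for oocyte against sperm. P-values are two-sided and adjusted by Benjamini-Hochberg over all transcripts tested. Shares carry 95% Wilson intervals, which cover counting error only. Replicate numbers follow the titles, also for the 8-cell stage, whose file names are in the opposite order. The procedure was tested on simulated data in which each stage had its own spread: false calls took a larger share than the threshold of 0.05 at both steps that involve the 2-cell stage and for oocyte against sperm, and only part of the added changes was recovered. A fit that weights the spread by stage is given beside the results for that reason. Tables were handled in Python 3.11.15 with pandas 2.3.3 and numpy 2.4.6, and figures drawn with matplotlib 3.10.9.

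Named members were those the study examined singly, the 3 largest called rises and falls of each comparison without overlap between stages, the 2 most abundant for each stage of highest level, the 5 most abundant head-to-head members within 1000 bases, the locus with the most members and the 3 members with the most exons. Members given besides these were chosen after their values were seen. Alternatives were another pseudocount, other filters, quantile normalization, other sets of libraries, weights per stage, a replicate block, sums per locus and each library left out. Promoter windows are RefSeq sequence of GRCm38.p6, and 33 members start in one. Splice site letters, reading frames and repeats were not analysed here.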

Additional observations from a re-analysis of the deposited data

How the results depend on the processing

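Of 167 alternative values, 105 stayed within 1.5 times the count or within the interval of the value reported, and 62 did not. With each library left out in turn, the called members ranged from 0 to 38 from oocyte to 1-cell, from 51 to 168 from 1-cell to 2-cell, from 0 to 129 from 2-cell to 4-cell, from 0 to 54 from 4-cell to 8-cell, from 0 to 28 from 8-cell to blastocyst, and from 125 to 264 for oocyte against sperm. In the same order of the last 5, quantile normalization gave 218, 35, 33, 16 and 328. Fitting only the 4 libraries of both stages gave 46, 0, 113 and 0 at the 4 steps from the 1-cell stage on, and weighting the spread by stage gave 41, 0, 134 and 16, while the calls over all transcripts were 2367, 0, 5198 and 6 and then 2270, 1, 6269 and 730. A pseudocount of 0.1 gave 4 at the 4-cell and 4 at the blastocyst step. With the replicate block the counts were 23, 95, 3, 23, 4 and 203, in the order of the ranges above. The correlation of same-numbered deviations from the stage means was above 0.1 in 3 of 15 pairs of stages (-0.49 to 0.41). These values do not settle whether libraries of the same number share a batch across stages. Without the 29 members of the fullest span bin, an alternative chosen after seeing the data, 10, 5 and 13 were called at the 1-cell, 4-cell and 8-cell steps. Replicate 1 alone gave top-stage shares of 24.9% for the oocyte, 7.49% for 2-cell, 10.4% for 4-cell, 8.47% for 8-cell and 6.19% for the blastocyst, and replicate 2 alone gave 2.93%, 45.5% and 0.650% for oocyte, 2-cell and blastocyst and 19.7% for 1-cell. With protein-coding starts only, 2.59% of members started within 1000 bases of an opposite start. The cause of these shifts was not tested, except that fewer libraries or members entered by construction. Alternatives on splice sites, reading frames and repeats were not run. TPM keeps no read counts, so an exact 0 may be a transcript missed.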
